A study of Mus musculus with 6 samples.

Results

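The axon guidance ligands and receptors were measured in mouse embryonic stem cells (ESC) and at 2 stages of their neural differentiation. Members were chosen by gene symbol, as the Eph receptors, ephrins, semaphorins, plexins, neuropilins, Slit and Robo genes, netrins, Dcc and the Unc5 genes. Earlier results of these data were known when they were chosen. Of 69 mouse protein-coding genes that match these symbols in RefSeq, 68 were measured, out of 18193 genes with a probe set of their own, and Ephb2 is not analysed here. They comprised 35 ligands and 33 receptors. Expression was read on 6 Affymetrix mouse 3' arrays, 2 for each of 3 groups, all from OLV2-1, a single ESC line with the fluorescent protein Venus knocked into the Oct4 locus. The ESC group was the Oct4-Venus+ fraction of undifferentiated cells. The EpiSC-like group, named for epiblast stem cells, was the Oct4-Venus+/Pecam1- fraction after 3 days of SFEBq culture, in which aggregates float in serum-free medium and turn towards neural fates. The Day7_Oct4-Venus+ group was the Oct4-Venus+ fraction after 7 days of SFEBq. Every group was therefore selected for Oct4-Venus by cell sorting, and the labels do not say whether replicate arrays came from separate cultures, so a p-value measures only the spread between these samples.

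Axon guidance proteins steer growing axons by attraction or repulsion at the growth cone. Ephrins bind Eph receptor tyrosine kinases between touching cells, semaphorins bind plexins with neuropilins as coreceptors, Slits bind Robos, and netrins bind Dcc and Unc5 receptors. The same families act outside axons, in cell sorting, tissue boundaries, vessel growth and migration in the early embryo.

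The values are array signals in intensity units, each array scaled by the authors to the same trimmed mean. A signal can be compared between arrays for a probe set and not between genes. Summed signals of a gene list are given for comparison between arrays only, and the genes with the highest signals weigh most in them. Differences are given on the scale log2(signal + 16), with the standard error of the fit. Calls rest on limma, with p-values adjusted by Benjamini and Hochberg's method over all 18193 genes and a threshold of 0.05. A gene is termed dim here where none of its 3 group means of log2(signal + 16) reached the median of all genes, 7.58, which is a signal of 174.8. Of the 68 members 37 were dim.

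The 3 called genes whose RefSeq start is the outermost one are shown here by the 250 bases upstream of that start, 5′ to 3′ on the strand of the gene, from RefSeq's annotation of GRCm38.p6. Efna5 lies at chr17:62881318-62881567 on the minus strand, Efnb2 at chr8:8661243-8661492 on the minus strand and Nrp2 at chr1:62703067-62703316 on the plus strand. Each window is the sequence next to the first exon and holds no transcribed base of that start. Capitals mark the motifs searched on both strands, namely the GC box GGGCGG, the CCAAT box, the TATA box TATAAA, the octamer ATGCAAAT, the TCF/LEF core CTTTGAT, the E-box CACGTG and the nuclear receptor half-site AGGTCA.
Efna5: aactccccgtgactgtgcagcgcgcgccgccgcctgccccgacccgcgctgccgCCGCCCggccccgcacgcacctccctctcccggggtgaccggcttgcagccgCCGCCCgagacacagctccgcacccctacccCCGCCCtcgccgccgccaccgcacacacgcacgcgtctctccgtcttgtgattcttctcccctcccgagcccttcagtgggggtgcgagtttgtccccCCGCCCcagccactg
Efnb2: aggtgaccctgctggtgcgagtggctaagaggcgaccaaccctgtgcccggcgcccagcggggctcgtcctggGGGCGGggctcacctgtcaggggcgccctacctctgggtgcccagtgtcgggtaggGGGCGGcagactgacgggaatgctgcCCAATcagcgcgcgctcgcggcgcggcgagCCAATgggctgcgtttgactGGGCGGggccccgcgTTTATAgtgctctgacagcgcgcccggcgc
Nrp2: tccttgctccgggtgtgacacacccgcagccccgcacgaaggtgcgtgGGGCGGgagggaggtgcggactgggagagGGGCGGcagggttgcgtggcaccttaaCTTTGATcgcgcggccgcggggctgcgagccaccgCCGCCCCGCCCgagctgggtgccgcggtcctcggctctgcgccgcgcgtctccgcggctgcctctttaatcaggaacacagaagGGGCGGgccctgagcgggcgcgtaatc
The Efna5 window held 4 GC boxes and the Nrp2 window 5 GC boxes, 2 of which overlap, and 1 TCF/LEF core. The Efnb2 window held 3 GC boxes, 2 CCAAT boxes and 1 TATA box. Their GC content was 74.8% for Efna5, 72% for Efnb2 and 72.4% for Nrp2, against a median of 64.4% over the member windows and 52.4% over 32851 mouse promoter windows of this length. GC boxes were found in 32.7% of all windows and in 71.6% of the 74 windows of 58 members. CCAAT boxes were in 33.8% of all windows and 25.7% of member windows, TATA boxes in 12.4% and 2.7%, and the TCF/LEF core in 3.21% and 1.35%. The octamer was in 1.6% of all windows and in none of the 74, the E-box in 6.02% and 5.41%, and the half-site in 14% and 14.9%. A match is a run of letters and not a tested binding site.

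Between ESC and day 3 EpiSC-like cells, 4 of the 68 members rose and 1 fell. The ephrin ligands Efnb2 and Efna5, the Eph receptor Epha7 and the transmembrane semaphorin Sema4c were higher in EpiSC-like cells, and the semaphorin coreceptor Nrp2 was lower. Over all genes 1.31% were called higher and 0.583% lower, 239 and 106 genes and 1.9% together. The 4 of 68 called higher are above the first share, while 1 lower call is too few to set against the second. With arrays centred on their median the calls were 184 and 148 over all genes and 4 and 2 among members. With a pseudocount of 1 or the replicate number as a block, 0 members were called in limma. At day 7 Sema4c was the 1 member called against ESC, and it was higher. Its background share was 0.753% of genes called higher, and 0.286% were called lower, 137 and 52 genes and 1.04% together. With arrays centred the calls were 92 and 82 over all genes and 1 and 1 among members. Between day 7 and day 3, 0 members were called in limma, where 7 genes in all passed (0.0385%, with 0.022% higher and 0.0165% lower), and 14 of 68 (20.6%) had an unadjusted p under 0.05, against 14.1% of all genes. Any 2 of the 3 comparisons share the arrays of 1 group, so their values for a gene are not independent. High day 3 arrays thus enter both a rise from ESC to day 3 and a fall from day 3 to day 7.

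**Figure D1:**
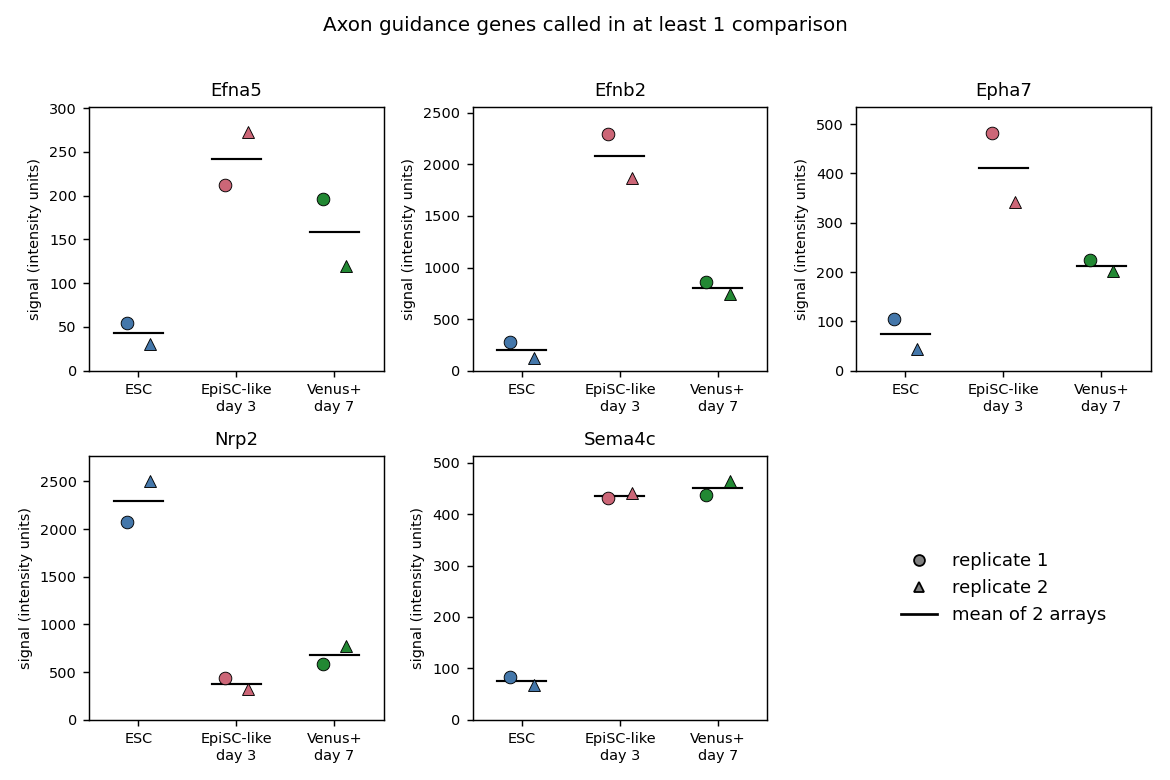
Signal in intensity units on each of the 6 arrays for the 5 called axon guidance genes, with circles for replicate 1, triangles for replicate 2 and a line for the mean of the 2 arrays. For Efna5, Efnb2, Epha7 and Sema4c both ESC arrays lie below the 4 other arrays, and for Nrp2 both lie above them.

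Efnb2 encodes ephrin-B2, a transmembrane ligand of EphB receptors and EphA4, known for boundary formation and for marking arteries. Its signal was 275.4 and 124.4 in ESC, 2295 and 1872 in EpiSC-like cells, and 857.7 and 744.3 at day 7. The 3 groups did not overlap, with day 3 highest and day 7 between. The rise from ESC to day 3 was 3.37 ± 0.37 (limma adjusted p = 0.01997), 10.3-fold on this scale. Its day 7 value stood 2.01 ± 0.37 above ESC (adjusted p = 0.06737) and -1.36 ± 0.37 from day 3 (adjusted p = 0.1921), and neither was called. A further probe set of Efnb2 that was not dim read 93.61 and 59.66, 797.9 and 736.4, then 426.2 and 243.6, a day 3 difference of 3.10. The 2 other probe sets of Efnb2 were dim, with day 3 differences of 1.10 and -0.83.

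Efna5 encodes ephrin-A5, a ligand held in the membrane by a lipid anchor that repels retinal axons through EphA receptors. It read 54.89 and 31.0 in ESC, 211.7 and 272.2 in EpiSC-like cells, and 196.0 and 120.1 at day 7. Both day 3 arrays were above both day 7 arrays, and all 4 were above ESC. The day 3 difference was 2.15 ± 0.34 (limma adjusted p = 0.03802), and the day 7 difference from ESC, 1.56 ± 0.34, was not called (adjusted p = 0.08785). Its other probe set was dim, from 5.079 to 21.85 on the 6 arrays.

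Epha7 encodes an EphA receptor known in neural fold closure and cortical patterning. Its signals were 105.6 and 43.65 in ESC, 481.9 and 341.9 in EpiSC-like cells, and 224.3 and 201.5 at day 7. As for Efnb2, the groups were separate and ran ESC, day 7, day 3 from low to high. The rise to day 3 was 2.31 ± 0.38 (limma adjusted p = 0.04533), and the day 7 value was 1.42 ± 0.38 above ESC (adjusted p = 0.1295). Of the 3 other Epha7 probe sets, all dim, the one with the largest day 3 difference, 1.71, read 41.78 and 30.2, 151.1 and 154, and 62.77 and 65.1. The differences of the 2 remaining were 0.03 and 0.24.

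Sema4c encodes a transmembrane class 4 semaphorin that binds plexin-B2 and is known in neural tube closure. Its only probe set read 83.25 and 67.2 in ESC, 430.7 and 440.5 in EpiSC-like cells, and 437.0 and 465.2 at day 7. The 4 arrays of SFEBq cells lay close together, with day 3 and day 7 overlapping, and far from ESC. The rise was 2.31 ± 0.23 to day 3 (limma adjusted p = 0.01639) and 2.36 ± 0.23 to day 7 (adjusted p = 0.02913), or 4.97-fold and 5.14-fold. Day 7 and day 3 differed by 0.05 ± 0.23 (adjusted p = 0.955).

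Nrp2 encodes neuropilin-2, the coreceptor for class 3 semaphorins such as Sema3f and for some VEGF ligands. It read 2078 and 2504 in ESC, 435.3 and 324.3 in EpiSC-like cells, and 586.8 and 774.9 at day 7. ESC was highest and day 3 lowest, with no overlap between any groups. The fall to day 3 was -2.55 ± 0.27 (limma adjusted p = 0.01997), 5.86-fold lower, and the day 7 difference from ESC, -1.73 ± 0.27, was just short of the threshold (adjusted p = 0.05042). Its 3 other probe sets, none of them dim, had day 3 differences of -1.44, -1.39 and -1.25. At day 7 against day 3 the probe set used was 0.82 ± 0.27 higher (adjusted p = 0.2681), while the others differed in sign, at 0.30, -0.13 and -0.07.

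**Figure D2:**
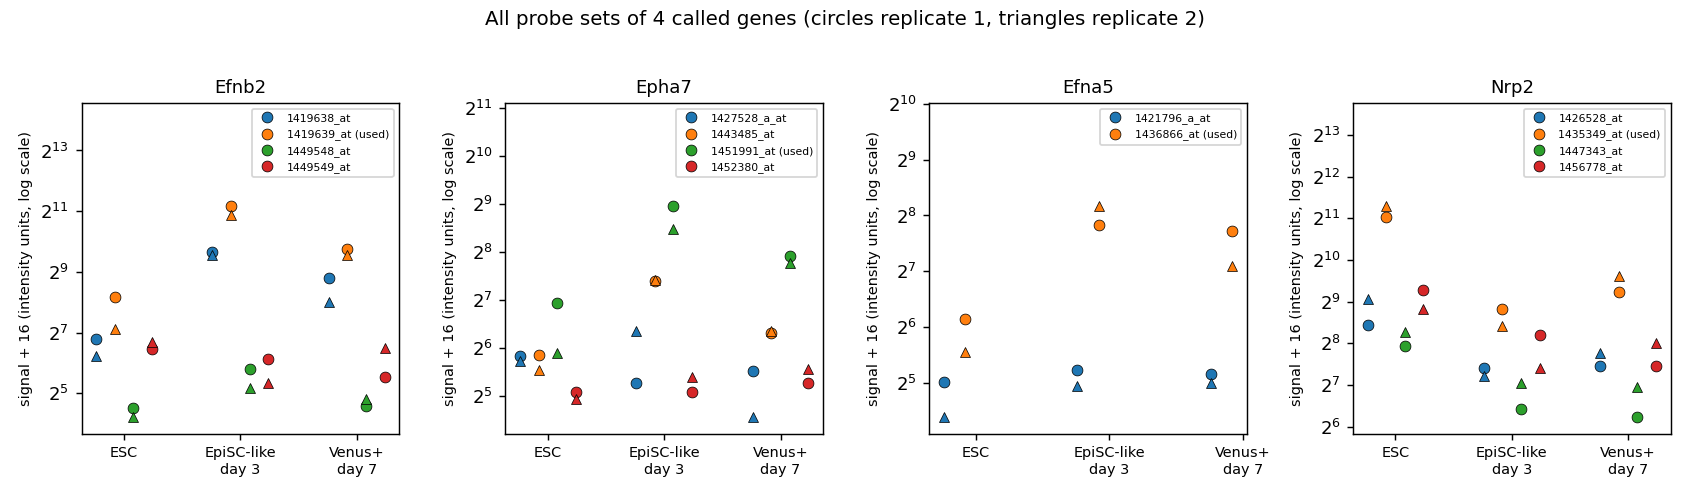
All probe sets of the 4 called genes that have more than 1, as signal + 16 on a log axis, with 1 colour per probe set, circles for replicate 1 and triangles for replicate 2. The probe set marked as used has the highest mean log2 of its gene. All 4 Nrp2 probe sets are lower at day 3 than in ESC, while for Efnb2, Epha7 and Efna5 some dim probe sets show little of the difference.

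With any 1 of the 6 arrays left out, and so fewer arrays in the fit, all these calls were lost except that of Efnb2 without ESC replicate 1. Over all alternatives the highest adjusted p in limma was 0.2073 for Efna5, 0.1844 for Epha7, 0.1358 for Efnb2 and Nrp2, and 0.1283 for Sema4c at day 3 and 0.2062 at day 7. With the replicate number as a block 0 genes were called in limma in any comparison, and all 5 genes kept their direction within each replicate number. The day 3 differences in replicates 1 and 2 were 2.99 and 3.75 for Efnb2, 1.68 and 2.62 for Efna5, 2.03 and 2.58 for Epha7, 2.17 and 2.46 for Sema4c, and -2.21 and -2.89 for Nrp2. Replicate numbers coincide with a technical split, with highest signals of 30793 to 36841 on the replicate 1 arrays and 63296 to 66643 on the replicate 2 arrays. The labelling control transcripts were low on ESC replicate 2 and EpiSC-like replicate 2, at 73.32 and 76.87 against 591.3 to 826.3 on the others. The actin 3' to 5' difference, which tracks RNA integrity, was 0.708 and 0.94 at day 7 and 0.456 to 0.585 on the other arrays. The part of these in the results was not tested beyond the block. Oct4 itself (Pou5f1) read 6244 to 14060 over the 6 arrays, and the primed epiblast gene Fgf5 read 26.16 and 25.94 in ESC, 1009 and 1243 at day 3, and 408.9 and 215.2 at day 7. Pecam1, against which the day 3 cells were sorted, read 727.7 and 343.4 in ESC, 400.9 and 176.7 at day 3 and 767.3 and 488.3 at day 7, a day 3 difference of -0.87 ± 0.51 that was not called (adjusted p = 0.4797). As these are bulk samples, fewer cells carrying a transcript and less of it per cell cannot be told apart.

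With the 5 called genes included, 24 of 68 members (35.3%) had an unadjusted p under 0.05 between day 3 and ESC, against 16% of all genes. A difference over 1 in either direction was found for 21 members, these 5 among them, against 9.16% of all genes, and the median difference was 0.27 over members and 0.03 over all genes. With arrays centred on their median these were 0.118 and -0.125. Both day 3 arrays were above both ESC arrays for 30 members and below for 9, where 25% and 19.9% of all genes did so. For day 7 against ESC the same counts were 17 (25%) at an unadjusted p under 0.05, against 18.3%, and 14 with a difference over 1, against 9.83%, with medians of 0.18 and 0.02. After centring, the medians of that comparison were -0.034 over members and -0.196 over all genes. Both day 7 arrays were above both ESC arrays for 24 members (26.6% of all genes) and below for 11 (23.5%). For day 7 against day 3, 9 members differed by over 1, against 7.45% of all genes, with medians of 0.04 and -0.02, and of -0.018 and -0.084 after centring. Both day 7 arrays were above both day 3 arrays for 13 members (21.3% of all genes) and below for 21 (24.5%). Replicates lay further apart for members that were not dim than for all genes that were not dim. The median absolute log2 replicate difference was 0.476 against 0.283 in ESC, 0.343 against 0.285 at day 3, and 0.293 against 0.214 at day 7. The part of this spread in the counts was not tested.

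Seen by stage, both day 3 arrays were above the 4 other arrays for 15 members, against 11.3% of all genes, and below them for 7, against 8.29%. Both ESC arrays were below the 4 others for 16 members (14.1% of all genes) and above them for 6 (10.8%). Both day 7 arrays were above the others for 4 members (12.2% of all genes) and below for 4 (11.5%). The 15 were Efna2, Efna5, Efnb1, Efnb2, Epha1, Epha2, Epha7, Plxnb1, Plxnc1, Sema3c, Sema3d, Sema3e, Sema3f, Sema6a and Slit3. The 4 above at day 7 were Efna1, Plxnd1, Sema4f and Sema4g.

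**Figure D3:**
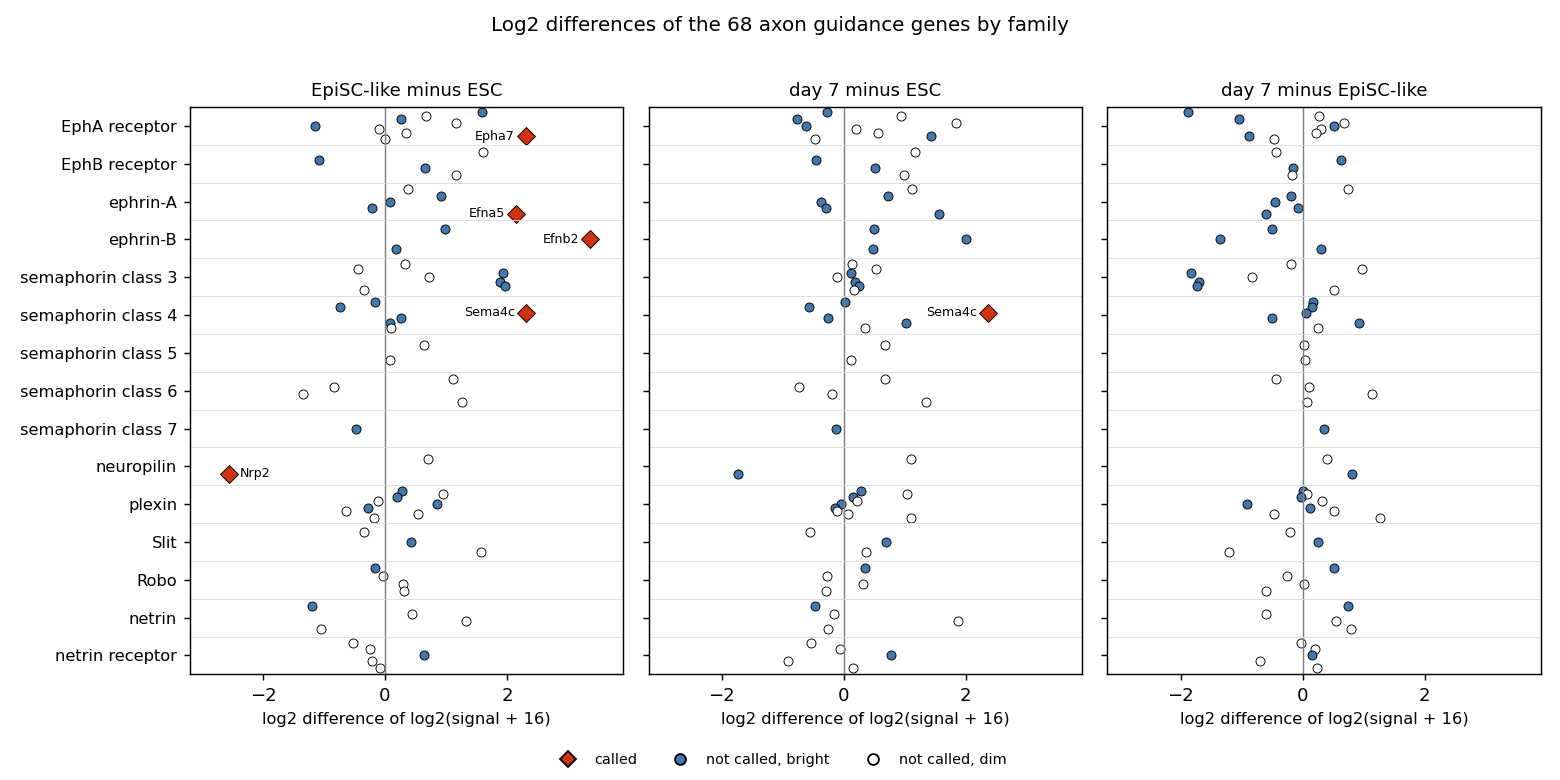
Log2 differences of the 68 axon guidance genes in the 3 comparisons, with 1 point per gene in rows by family. Red diamonds are called genes, blue circles genes that were not called and not dim (bright), and white circles dim genes. Called genes appear in the first panel (5 genes) and the second (Sema4c), and none in the third.

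Among the ligands, 7 of the 8 ephrins had a day 3 value above 0 relative to ESC (6 with arrays centred on their median or quantile-normalized) and 2 were called, Efnb2 and Efna5. Over all genes 52.3% had a value above 0 in this comparison, 39.2% with arrays centred and 47.9% quantile-normalized. Efnb1, the X-linked ligand behind craniofrontonasal malformation, read 457 and 162.3 in ESC, 467.5 and 672.6 at day 3, and 394.3 and 388.5 at day 7. Its ESC arrays differed widely, and the day 3 difference of 0.99 ± 0.47 was not called (adjusted p = 0.372). Its other probe sets had closer ESC arrays, with 94.26 and 66.01 in ESC against 295.9 and 419.1 at day 3 on one (1.95), and 92.54 and 96.06 against 152.1 and 245.8 on the other (0.93). Efna2, an EphA ligand known in midbrain mapping, read 276 and 130.4, then 397.9 and 351.6, then 327.1 and 320.9, lower in ESC than on all other arrays, with a day 3 difference of 0.92 ± 0.35 (adjusted p = 0.2725). Efnb3, Efna3 and Efna4 had no difference between any groups larger than 0.48, and all 3 overlapped between ESC and day 3. Efna1, which was dim, was highest at day 7 on the probe set used. It read 139.7 and 183.7 against 56.63 and 74.27 in ESC and 67.79 and 117.3 at day 3. Its 1.12 over ESC was not called. On its other probe set, also dim, day 7 overlapped ESC, at 30.85 and 53.66 against 19.31 and 32.84.

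On the receptor side of the ephrin system, 10 of 13 Eph receptors had a day 3 value above 0 (9 with either of those scalings) and Epha7 alone was called. Epha1, the first receptor of the family to be cloned, read 148.5 and 90.09 in ESC, 403.6 and 362 at day 3, and 75.23 and 113.6 at day 7. Its day 3 arrays were above the 4 others, which overlapped. The difference was 1.59 ± 0.31 from ESC to day 3 (limma adjusted p = 0.06324) and -1.87 ± 0.31 from day 3 to day 7 (adjusted p = 0.08947). The latter is the smallest adjusted p of any member in that comparison. The other Epha1 probe sets were dim, with day 3 differences of 0.09 and 0.80. Epha2, a receptor found in early epiblast and in many epithelia, read 762.5 and 797.1, then 1035 and 855.1, then 626.3 and 322.2, lowest at day 7 (-1.04 ± 0.34 from day 3, adjusted p = 0.2576).

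Other Eph receptors had their highest signals in ESC. Epha4, which binds ephrins of both classes, read 1454 and 889.1 in ESC, 506.4 and 508.1 at day 3, and 654.1 and 819.3 at day 7. Ephb3 read 491.2 and 689.6, then 243.1 and 291.8, then 473 and 371.2. On these probe sets ESC was above all other arrays and day 3 was below all others, with day 3 differences of -1.14 ± 0.30 (adjusted p = 0.1309) and -1.08 ± 0.28 (adjusted p = 0.121). Neither was called. Of the 3 other Epha4 probe sets that were not dim, 2 overlapped between ESC and day 7, reading 855.4 and 308.1 against 603.7 and 416.4 and 1095 and 188.8 against 744.1 and 301.7, and all 3 had day 3 differences below 0 (-0.66, -0.60 and -0.76). Ephb4, the usual partner of ephrin-B2 in vessels, read 125.8 and 98.21, then 171.5 and 201.1, then 213.5 and 126.1, a day 3 difference of 0.67 ± 0.31 (adjusted p = 0.3596). The remaining 7 receptors, Epha3, Epha5, Epha6, Epha8, Epha10, Ephb1 and Ephb6, were dim, with day 3 differences from -0.10 to 1.61.

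Of 20 semaphorins, 13 had a day 3 value above 0 against ESC (10 with either of those scalings), against the 52.3% of all genes, and 1, Sema4c, was called. The secreted class 3 held the largest uncalled differences. Sema3f, which repels axons through Nrp2, read 51.37 and 74.68 in ESC, 329 and 256.1 at day 3, and 52.34 and 109.9 at day 7. It was the uncalled member nearest the threshold at day 3 (1.97 ± 0.36, limma adjusted p = 0.05332), on a probe set whose name marks it as open to cross-hybridisation. Sema3c, a class 3 ligand needed for outflow tract septation, read 60.14 and 23.0, then 176.3 and 211.2, then 61.24 and 28.99 (1.94 ± 0.41 at day 3, adjusted p = 0.07722). Sema3e, which signals through Plxnd1 without a neuropilin, read 491.6 and 207.7, then 1481 and 1012, then 464.4 and 287.5 (1.88 ± 0.46, adjusted p = 0.108).

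On the probe sets used for these 3 genes the day 3 arrays stood above all others and day 7 overlapped ESC. From day 3 to day 7 the differences were -1.72 ± 0.36 for Sema3f, -1.83 ± 0.41 for Sema3c and -1.70 ± 0.46 for Sema3e, with adjusted p of 0.1213, 0.1357 and 0.186. The 2 other probe sets of Sema3e that were not dim had day 3 differences of 3.03 and 1.81. On the first of these day 7, at 96.34 and 96.42, was above ESC, at 91.82 and 5.847. The other Sema3c probe set was dim, with a day 3 difference of 0.059 and day 3 overlapping ESC. The other Sema3f probe sets, also dim, had day 3 differences of 1.135 and 0.249. The 4 remaining class 3 genes, Sema3a, Sema3b, Sema3d and Sema3g, were dim, with day 3 differences from -0.44 to 0.72.

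**Figure D4:**
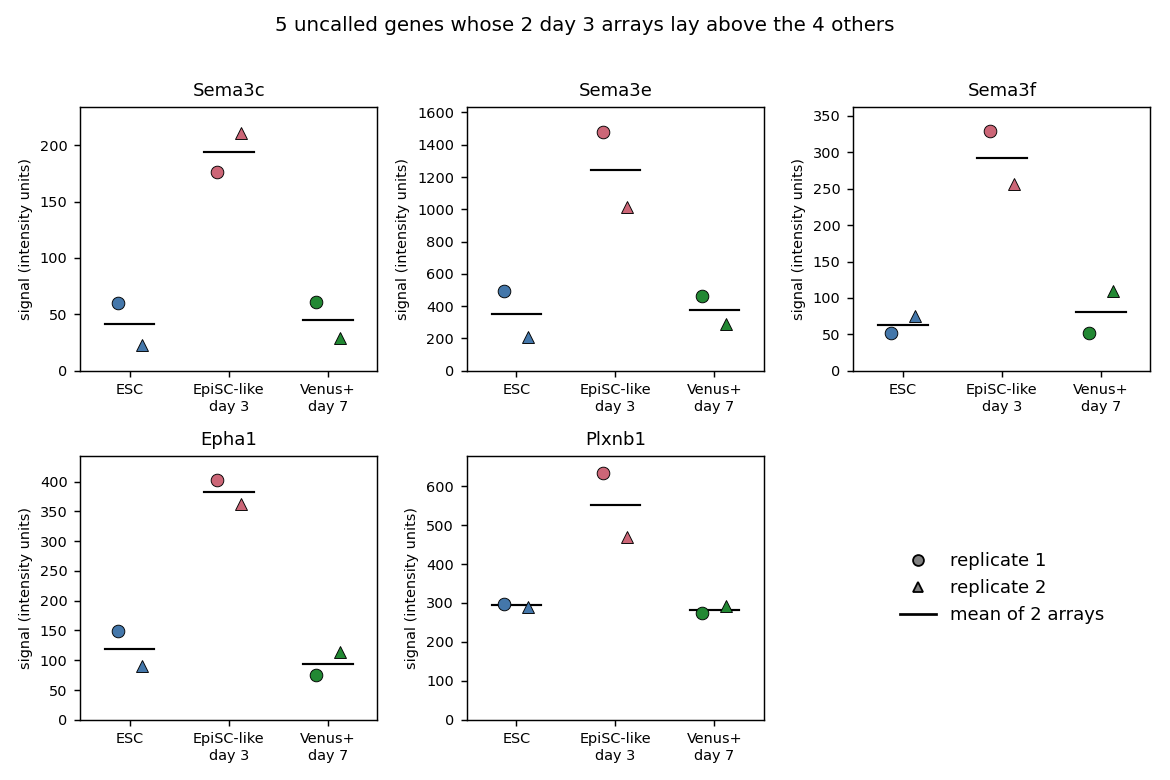
Signal in intensity units on each of the 6 arrays for 5 uncalled genes, with circles for replicate 1, triangles for replicate 2 and a line for the mean of the 2 arrays. The genes were chosen after their values were seen. In each gene, on the probe set used, both day 3 arrays lie above the other 4 arrays, as was so for 15 of 68 members and 11.3% of all genes.

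The class 4 semaphorins are membrane proteins that bind mainly B-type plexins. Sema4b read 1613 and 2126 in ESC, 1252 and 980.1 at day 3, and 1158 and 1328 at day 7, highest in ESC (-0.73 ± 0.26 at day 3, adjusted p = 0.2424). Sema4f read 118.1 and 97.89, then 118.1 and 112.2, then 205.6 and 265, so that both day 7 arrays were above all others, 1.01 ± 0.24 over ESC (adjusted p = 0.109). This probe set is also marked as open to cross-hybridisation, and the other Sema4f probe set, which was dim, read 33.12 and 19.52, then 85.96 and 127, then 109.3 and 92.98, with day 7 overlapping day 3. Sema4d, the ligand of Plxnb1, read 490.9 and 531.5, then 493.9 and 760, then 465.8 and 390.7, with ESC and day 3 overlapping. Classes 5 to 7 gave 7 genes and 0 calls in limma, with 3 at an unadjusted p under 0.05 at day 3 and 1 in each other comparison, and day 3 differences from -1.34 for Sema6c to 1.27 for Sema6d. The shares over all genes in the 3 comparisons were 1.9%, 1.04% and 0.0385% called and 16%, 18.3% and 14.1% at such a p.

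Of the plexins, the semaphorin receptors, 0 of 9 were called by limma in any comparison, with 2 in each at an unadjusted p under 0.05. On the probe sets used the largest difference at day 3 was 0.96, for Plxna2. The shares over all genes in the 3 comparisons were 1.9%, 1.04% and 0.0385% called and 16%, 18.3% and 14.1% at such a p. Plxnb1 read 297.8 and 289.9 in ESC, 634 and 468.1 at day 3, and 274.3 and 291.1 at day 7, with day 3 above all other arrays. Its differences were 0.86 ± 0.25 from ESC to day 3 (limma adjusted p = 0.1561) and -0.91 ± 0.25 from day 3 to day 7 (adjusted p = 0.186). On its other probe set, which was not dim, the day 3 difference was 1.09, with 395.8 and 391.7 against 148.8 and 210.3 in ESC. There both day 7 arrays were also above ESC, by 0.53, at 269.1 and 256.1. Plxna1, a receptor partner of both neuropilins, read 513.5 and 635.2, then 638.3 and 752, then 698.7 and 698.1, and its differences were 0.27, 0.28 and 0.01. Plxnb2, the receptor of Sema4c, read 325.6 and 582.4, then 306.3 and 419.1, then 379 and 405, overlapping in all 3 groups. Plxna3 read 215.2 to 279.5 over the 6 arrays. Plxnd1, the Sema3e receptor, was dim and its day 7 arrays, 171.4 and 102.1, were above the other 4, which ran from 24.9 to 76.45.

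Nrp1, the neuropilin used by Sema3a, was dim with uneven replicates. It read 20.11 and 20.39 in ESC, 78.95 and 20.86 at day 3, and 27.15 and 124.4 at day 7. Both ESC arrays were below the 4 others, of which the lowest was 20.86. The differences from ESC, 0.71 ± 0.64 at day 3 and 1.10 ± 0.64 at day 7, were not called (limma adjusted p = 0.677 and 0.4198). The other Nrp1 probe sets were also dim, with day 3 differences of 1.02, 0.77 and -0.28.

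The Slit and Robo genes gave 0 calls of 7 in limma in each comparison, with 1 in each at an unadjusted p under 0.05. Over all genes 1.9%, 1.04% and 0.0385% were called in the 3 comparisons, and 16%, 18.3% and 14.1% had such a p. Slit2, a secreted repellent, read 172.5 and 156.4 in ESC, 278.8 and 185.3 at day 3, and 240.9 and 312.4 at day 7. ESC was lowest, and the day 7 difference was 0.69 ± 0.28 (adjusted p = 0.2676). The other Slit2 probe sets were dim, with day 7 differences from ESC of -0.158 and -0.008. Robo1, the receptor of Slit2, read 1134 and 585.7, then 1346 and 388, then 1082 and 1002. On this probe set the replicates of ESC and day 3 lay so far apart that no group difference, at most 0.51 ± 0.59, exceeded them. The 2 other Robo1 probe sets were dim, and on both the day 7 arrays were above all others. One read 25.88 and 7.819, then 56.65 and 39.28, then 116.9 and 102.2. The other read 31.33 and 42.86, then 25.89 and 15.34, then 54.46 and 58.52. Robo2, dim on its probe set, read 0.7266 to 25.96, and Slit3, also dim, read 15.16 and 13.59 in ESC, 72.09 and 76.33 at day 3, and 48.22 and 7.802 at day 7.

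Of 9 netrins and netrin receptors 0 were called in limma, with 2, 3 and 1 at an unadjusted p under 0.05 in the 3 comparisons. Over all genes 1.9%, 1.04% and 0.0385% were called, and 16%, 18.3% and 14.1% had such a p. Netrin-1 (Ntn1), the secreted ligand of Dcc and the Unc5 receptors, was highest in ESC and lowest at day 3. Its signals were 1005 and 1164 in ESC, 468.7 and 452.9 at day 3, and 787.7 and 770.7 at day 7. On this probe set replicates agreed closely and the 3 groups were separate. The day 3 difference was -1.20 ± 0.22 (limma adjusted p = 0.056), just outside the threshold, and day 7 was 0.74 ± 0.22 above day 3 (adjusted p = 0.2244). The other Ntn1 probe set was dim and its groups overlapped. It read 48.11 and 31.67, then 5.24 and 59.64, then 45.26 and 55.6. Unc5b, a repulsive netrin receptor, read 274.6 and 181.4, then 412.1 and 306.9, then 481.7 and 324.9, with ESC below all other arrays (0.64 ± 0.32 at day 3, adjusted p = 0.4116, and 0.78 ± 0.32 at day 7, adjusted p = 0.271). Ntn3, Ntn4, Ntn5, Unc5a, Unc5c and Unc5d were dim.

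Dcc, the attractive netrin receptor, depended on the probe set. The one with the highest mean log2 was dim and read 109.9 and 132.4 in ESC, 83.36 and 75.98 at day 3, and 104.8 and 57.23 at day 7, with no called difference. A further one read 8.138 and 11.84, then 15.31 and 5.841, then 67.06 and 526.1, and another read 0.6727 and 4.304, then 16.6 and 0.8979, then 117.8 and 342. On these 2 probe sets both day 7 arrays were above the other 4, and day 7 replicate 2 was far above replicate 1. Their day 7 differences from ESC were 3.03 and 3.57, against -0.54 on the probe set used.

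Of 14 neuronal markers 12 had their highest signal on day 7 replicate 2, as had 12 of 14 markers of primitive and visceral endoderm. The share of all genes that were highest on that array was not counted. Dcx read 78.35 and 603.8 at day 7 and 2.572 to 33.39 on the other arrays, Nefm read 299.9 and 1125 at day 7 and 122.7 to 226 elsewhere, and Nhlh2 read 206.4 and 985.5 at day 7 and 1.134 to 19.74 elsewhere. At day 7 against ESC, 1 neuronal marker (Nhlh2) was called higher and 1 (Stmn2) lower, with 4 higher and 1 lower at an unadjusted p under 0.05 and a list median of 1.07, and 3 were dim. Tubb3 differed by 0.14 ± 0.27. The summed signal of the list was 12900 and 17490 in ESC, 6412 and 6013 at day 3, and 5794 and 11630 at day 7, and Stmn2 alone made 8317 and 13360 of the ESC sums. Without Stmn2 the sums were 4583 and 4130 in ESC, 4940 and 4897 at day 3, and 4335 and 9121 at day 7. Of the endoderm markers 0 were called in limma, 9 had an unadjusted p under 0.05 at day 7 against ESC and 5 were dim, and their summed signal was 1206 to 1686 in ESC and at day 3, and 3988 and 14670 at day 7. Among them Ttr read 89.59 and 778.6 at day 7 and 1.484 to 24.71 on the other arrays. At day 7 against ESC 1.04% of all genes were called and 18.3% had an unadjusted p under 0.05. The part of neurons or endoderm in the Dcc values was not tested.

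**Figure D5:**
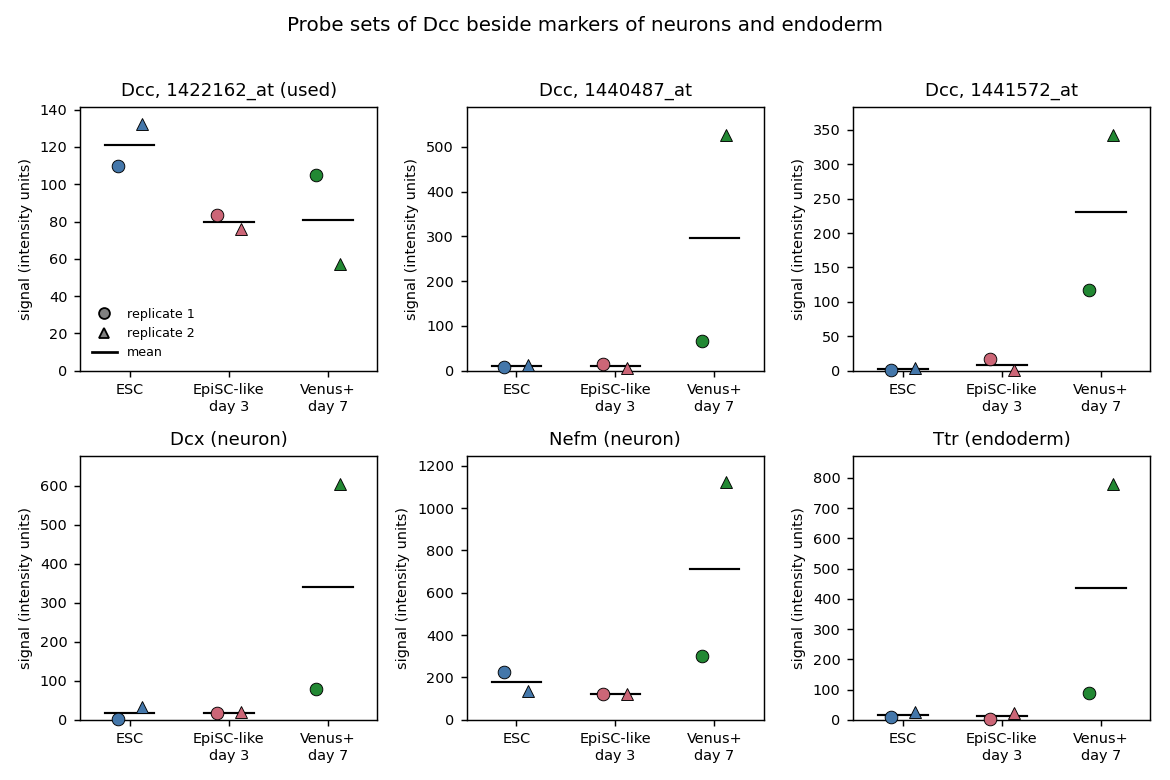
Signal in intensity units on each of the 6 arrays for the 3 Dcc probe sets, the neuronal genes Dcx and Nefm and the endoderm gene Ttr, with circles for replicate 1, triangles for replicate 2 and a line for the mean of the 2 arrays. On 2 of the 3 Dcc probe sets and in the 3 marker genes the highest array is day 7 replicate 2.

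Several of these ligands and receptors are also vessel genes, and of 7 endothelial markers 0 were called in limma in any comparison (2, 2 and 0 at an unadjusted p under 0.05) and 5 were dim. Their summed signal was 1365 and 1321 in ESC, 1182 and 1028 at day 3, and 1208 and 1489 at day 7 and the list's median difference at day 3 was 0.205. Of 6 neural crest markers 1, Snai2, was called higher at day 3, with 33.77 and 37.1 in ESC against 194.6 and 115.8, and their summed signal was 677.3 to 847.4 in ESC and 917.6 to 1173 at day 3. Sox10 of that list was dim in every group, at 13.59 to 68.47. Of 9 naive pluripotency genes 3 (Klf4, Esrrb and Tfcp2l1) fell at day 3, beside Nrp2, with summed signals of 58110 and 74820 in ESC, 25380 and 18940 at day 3, and 38220 and 41660 at day 7. Of 5 primed epiblast genes 3 (Fgf5, Pou3f1 and Lef1) rose, beside the called members, with summed signals of 12930 and 9794, then 30370 and 34830, then 18180 and 13470. Of 9 neural progenitor markers 3 rose at day 3 and 5 at day 7 against ESC, with summed signals of 826.6 and 797.9, then 4957 and 5757, then 2875 and 3572. Of 7 fibroblast and mesenchyme markers 1 was called higher at day 3, with summed signals of 382.5 to 488 in ESC and 625.3 to 746.7 at day 3, and of 5 mesendoderm markers 0 were called in limma (1 at an unadjusted p under 0.05 at day 3). Over all genes 1.9%, 1.04% and 0.0385% were called in the 3 comparisons, and 16%, 18.3% and 14.1% had an unadjusted p under 0.05. The part of any of the cell states above in the results was not tested.

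Other genes of the pathway were taken from a list of 85 coreceptors, partners and cytoplasmic effectors, 81 of them measured. Between ESC and day 3, 4 rose and 0 fell in limma (18 higher and 5 lower at an unadjusted p under 0.05), and the median difference was 0.32. Over all genes 1.31% were higher, 0.583% lower and 16% at an unadjusted p under 0.05, and the median was 0.03. The 4 were Cxcl12, Nrcam, Trio and Pak3. At day 7 Cxcl12 was called higher than ESC and 0 were lower (15 higher and 2 lower at an unadjusted p under 0.05), with a median of 0.27, where 0.753% of all genes were higher, 0.286% lower and 18.3% at an unadjusted p under 0.05, with a median of 0.02. Between day 7 and day 3, 0 were called in limma (9 at an unadjusted p under 0.05, against 14.1% of all genes), with a median of -0.01 against -0.02 over all genes.

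Cxcl12, the chemokine that guides cells carrying the receptor Cxcr4, read 22.15 and 26.28 in ESC, 315.9 and 441.2 at day 3, and 358.1 and 213.6 at day 7. Its rise was 3.28 ± 0.32 at day 3 and 2.87 ± 0.32 at day 7 (limma adjusted p = 0.01639 and 0.02913). Cxcr4 was dim, at 3.608 to 46.74. Nrcam, a cell adhesion molecule that partners neuropilins, read 58.4 and 30.58, then 491.5 and 328.1, then 181 and 285.2, a rise of 2.83 ± 0.37 at day 3 (adjusted p = 0.027).

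Trio, an exchange factor that activates Rac downstream of Dcc, read 411.9 and 498 in ESC, 1724 and 1799 at day 3, and 612.2 and 639.9 at day 7, and rose by 1.92 ± 0.23 at day 3 (limma adjusted p = 0.0227). Pak3, a kinase activated by Rac and Cdc42, read 60.78 and 46.63, then 202.4 and 189.5, then 97.16 and 107.4, and rose by 1.61 ± 0.23 (adjusted p = 0.03299). In both genes day 3 was highest and the 3 groups were separate. Among uncalled genes of the list, the kinase Limk2, which acts on cofilin, had a day 3 difference of -1.21 ± 0.22 (adjusted p = 0.05657), and the receptor-like Ptk7 one of 1.44 ± 0.33 (adjusted p = 0.09193). The day 3 differences of Fzd3, Dpysl2 and Dpysl3 were 1.14, 1.66 and -1.26, and the day 7 differences from ESC of Flrt3, Adam10 and Gap43 were 1.77, 1.36 and 1.31, none of them called.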

How the data were processed

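The authors deposited linear signal intensity values per probe set of 6 Affymetrix mouse 3' arrays, made with Affymetrix Expression Console version 1 per the submitters' processing notes. The sources used here do not name the summary algorithm. The mean after trimming 2% at each end was 500.003 to 500.004 on every array. Of 45101 probe sets, 64 controls and 932 with several genes in the platform annotation were left out, and 34945 had 1 gene. Per gene the probe set with the highest mean log2(signal + 16) was kept. limma 3.58.1 in R 4.3.3 fitted 3 group means over all 6 arrays with eBayes (3 residual and 3.525 prior degrees of freedom) and Benjamini-Hochberg adjustment over 18193 genes. The script was tested on simulated data. Alternatives changed the pseudocount, filter, scaling, probe set rule, prior, block and arrays used.

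Members and lists were chosen with earlier results of these data known. Named were called members, Nrp1, Nrp2, Dcc, Ntn1, Slit2, Robo1 and Robo2, up to 6 uncalled members per family that were not dim and differed most, and of the pathway list called genes and up to 8 others. Other dim members with values of their own were chosen after their values were seen. The replicate numbers were not taken to pair samples, as the labels do not say that they mark a shared day or batch. Deviations of same-numbered arrays correlated at 0.283, 0.079 and 0.097.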

Additional observations from a re-analysis of the deposited data

How the results depend on the processing

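No alternative turned the direction of a called gene. For day 3 against ESC the 4 higher and 1 lower members became 7 and 2 with a pseudocount of 64 or with genes at or above the 25th percentile, 4 and 4 with genes at or above the median, 4 and 2 with arrays centred on their median, 2 and 1 with quantile normalization or the mean of all probe sets, and 7 and 3 with a trended prior variance. They became 0 and 0 with a pseudocount of 1, with the replicate block (27 members at an unadjusted p under 0.05, against 24) or with only the groups compared, and 3 and 1 with the labelling control level as a block, which was added after seeing the data. Without 1 array the counts were 0 to 1 higher and 0 lower, with Efnb2 remaining without ESC replicate 1. For day 7 against ESC the 1 and 0 members became 2 and 1 (pseudocount of 64, trended prior), 4 and 1 (25th percentile), 3 and 1 (median) and 1 and 1 (centring), and 0 and 0 with a pseudocount of 1, the replicate block, only the groups compared, the labelling control block or without any 1 array. For day 7 against day 3, 1 member, Epha1, was lower with a pseudocount of 64, the 25th percentile or the trended prior.

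Of the alternatives tried, Efnb2 kept its call in 10 of 18, Sema4c in 9 of 18 at day 3 and 8 of 18 at day 7, Nrp2 in 9 of 18, Epha7 in 7 of 18 and Efna5 in 5 of 17. Over these the lowest difference was 1.69 for Efnb2, 1.07 for Epha7, 1.27 for Efna5 and 1.85 for Sema4c at day 3, and that of Nrp2 nearest to 0 was -1.66. Centring the arrays moved the median of all genes at day 3 from 0.03 to -0.13 and its calls from 239 higher and 106 lower to 184 and 148, and at day 7 against ESC from 0.02 to -0.20 and from 137 and 52 to 92 and 82. The member median at day 3, 0.27, was 0.28 with a pseudocount of 1, 0.17 with 64, 0.28 and 0.26 in genes past the 25th percentile and the median, 0.12 centred, 0.18 quantile-normalized, 0.28 over all probe sets, 0.26 by linear signal (added after seeing the data) and 0.27 to 0.39 without 1 array. That of day 7 against ESC, 0.18, was 0.26, 0.11, 0.23, -0.034 (centred), 0.092 (quantile) and 0.23 (all probe sets) in turn, 0.22 with the labelling control block and 0.18 to 0.27 without 1 array, and that of day 7 against day 3, 0.04, was -0.018 centred and -0.031 to 0.106 without 1 array. With the replicate block the count of calls is 0 in every comparison, over all genes too. Deviations of same-numbered arrays correlated at 0.283 between ESC and EpiSC-like and under 0.1 in the other pairs, so whether the numbers pair the samples is not settled. Precision is limited by the 2 arrays per group and, for the 37 dim members, by low signal.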

Other observations

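Some members lie next to each other in the genome with no protein-coding gene between them. Robo1 and Robo2 are such a pair, as are Robo3 and Robo4, Sema3a and Sema3d, and the run Efna1, Efna3 and Efna4. None of these 9 genes was called in any comparison, where 1.9%, 1.04% and 0.0385% of all genes were called. At day 3 against ESC the differences were 0.72 for Sema3d and 0.34 for Sema3a, and 0.39 for Efna1, 0.08 for Efna3 and -0.21 for Efna4. At day 7 against ESC they were 1.12 for Efna1, -0.37 for Efna3 and -0.29 for Efna4.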
